A study of Mus musculus with 12 samples.

Results

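The 36 genes described here encode aminoacyl-tRNA synthetases of the mouse, 20 of them enzymes of the cytosol and 16 enzymes of mitochondria. They were taken by gene symbol from a fixed list of known synthetases. The rule used no measured value, although earlier results of these data were known when the list was chosen. All 36 were found among the 55335 gene rows of the deposited tables. RNA-seq and ribosome footprinting, which sequences the mRNA fragments shielded by ribosomes, were applied to thymocytes from mice aged 6 weeks and kept under pathogen-free conditions. One genotype was wild type (WT) and the other was a knockout (KO) of miR-181a/b-1, the microRNA pair Mir181a-1 and Mir181b-1; the labels give neither strain nor sex, and do not say in which cells or how the pair was deleted. There were 3 libraries in each of 4 groups, RNA-seq WT, RNA-seq KO, footprint WT and footprint KO, and all cells had been placed in cycloheximide at 0.1 mg/ml, which holds ribosomes on the mRNA. The cells were whole thymus suspensions passed through a strainer of 70 µm and not sorted, as far as the labels say.

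An aminoacyl-tRNA synthetase joins an amino acid to its transfer RNA, using ATP, and so supplies the ribosome with its substrates. Cytosolic proteins and the few proteins made inside mitochondria draw on separate sets of these enzymes, all of them encoded in the nucleus. Kars and Gars each give both a cytosolic and a mitochondrial enzyme, and mitochondrial glutaminyl-tRNA is made by amidation instead of by a glutaminyl-tRNA synthetase, which is why the mitochondrial set is the smaller one. Several cytosolic enzymes sit in one large complex held together by scaffold proteins. Many cytosolic synthetase genes are known targets of the transcription factor ATF4, which is made when amino acids run short. Thymocytes divide rapidly at the double-negative and early double-positive stages, and protein synthesis then runs high.

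The microRNAs deleted in the KO are shown first, because they define the groups. Capitals mark the seed, bases 2 to 8 from the 5′ end, which is the same in both; the sequences and positions are those of RefSeq for GRCm38.p6, where the 2 RNAs lie at chr1:137966468-137966490 and chr1:137966650-137966673 on the plus strand.
mmu-miR-181a-5p: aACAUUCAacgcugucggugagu
mmu-miR-181b-5p: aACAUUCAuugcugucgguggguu
Target sites for this seed in the synthetase transcripts were not analysed here.

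A promoter motif was present in a larger share of the cytosolic members that have a window than of all genes. The RefSeq table of promoters for GRCm38.p6 holds 300-base windows, 250 before and 50 after the start site, for 13 cytosolic and 14 mitochondrial members; the others are Cars, Hars, Lars, Nars, Rars, Vars, Wars, Hars2 and Pars2. The 8-letter motif TGATGNAA, the amino acid response element to which ATF4 is known to bind, was searched on both strands. It was in the windows of 5 of 13 cytosolic members (38.5%), Aars, Gars, Iars, Tars and Yars, in 0 of 14 mitochondrial ones and in 1219 of the 27025 genes of the table (4.51%). A stretch of 30 bases around a match in each of these genes is printed on the strand of the gene, with the match in capitals; Yars reads TGATGCAA and the others read the reverse complement.
Aars, chr8:111033840-111033869, plus strand, match from 9 bases after the start site: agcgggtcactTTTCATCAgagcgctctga
Gars, chr6:55037960-55037989, plus strand, match from 30 bases before it: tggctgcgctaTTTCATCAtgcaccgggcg
Iars, chr13:49682126-49682155, plus strand, match from 7 bases after it: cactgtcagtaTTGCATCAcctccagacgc
Tars, chr15:11399655-11399684, minus strand, match from 15 bases before it: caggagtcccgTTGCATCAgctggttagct
Yars, chr4:129189895-129189924, plus strand, match from 3 bases after it: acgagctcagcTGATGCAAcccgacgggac
A match is a description of the window and not a measured binding site, and the windows without one say nothing of ATF4 elsewhere in those genes. At a share of 4.51% among all genes, no match in 14 windows does not set the mitochondrial members apart.

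Reads in genes numbered 4479182 to 8180286 per RNA-seq library and 4069968 to 17859770 per footprint library, the fewest in footprint KO replicate 3. Thymocyte markers were abundant, all 12 of 12 listed being detected with summed levels of 24532 to 25690 CPM in WT footprints. In footprints the Mir181a-1 row lay at 133 to 166 CPM in WT and 0.464 to 1.04 CPM in KO, which checks the footprint labels; in RNA-seq the same row had 57 reads in WT and 67 in KO, so that the RNA-seq groups are those of the labels alone. The deposited counts are named as adjusted, in a way that the sources used here do not state, and WT and KO libraries with the same number were mirror images: across 9078 genes of RNA-seq and 8155 of footprints their deviations from the group means correlated at -0.984 to -0.958 and at -0.99, against 0.214 to 0.697 and 0.381 to 0.632 for libraries of unlike number. Yars2 in RNA-seq shows it in miniature, with 11.3, 11.3 and 11.4 CPM in WT and 12.7, 12.8 and 12.6 CPM in KO. The spread between the libraries therefore does not measure the spread between mice. Hence edgeR calls of synthetases between KO and WT are given with their value when the replicate number is a block in the fit. The SEs printed for KO against WT are from the fit without the block, unless the block is named. In footprints Wars2 had an SE of 0.07 without the block and 0.18 with it.

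Levels are given as CPM, a gene's reads scaled to the library total with TMM factors, without correction for transcript length; levels are therefore ranked within each assay as shares of reads, not as numbers of mRNA molecules. In WT RNA-seq the cytosolic members lay between 32.7 CPM (Wars) and 174 CPM (Eprs), with a median of 61.9 CPM, and the mitochondrial members between 11.3 CPM (Yars2) and 81.2 CPM (Mars2), with a median of 39.4 CPM. In WT footprints the medians were 158 CPM and 25.6 CPM. In WT every member was read well in both assays, the fewest reads in a library being 71 in RNA-seq and 82 in footprints. In KO the fewest were 46 in RNA-seq and 27 in footprints, both for Ears2.

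Eprs, the fused glutamyl- and prolyl-tRNA synthetase, took the largest share of reads of the 36 in both assays. It had 170, 185 and 167 CPM in WT RNA-seq and 312, 337 and 333 CPM in WT footprints. Vars, the valyl-tRNA synthetase, came second in both, with 94.1, 104 and 131 CPM in RNA-seq and 256, 260 and 285 CPM in footprints. In RNA-seq the lowest library of Vars lay close to the highest of Qars, at 91.2 CPM, and the next in the order, Qars at 83.6 ± 6.91 CPM and Dars at 83 ± 4.36 CPM (SD, n = 3), did not differ beyond their spread. Wars, for tryptophan, was the lowest cytosolic member in RNA-seq with 28.1, 37.4 and 32.6 CPM, and Cars, for cysteine, the lowest in footprints with 47.2, 48.4 and 46.8 CPM. Among mitochondrial members Mars2, for methionine, was highest in RNA-seq with 86.8, 86.1 and 70.7 CPM, whereas Iars2, for isoleucine, was highest in footprints with 86.2, 85.4 and 90.1 CPM. The order of the mitochondrial members thus differed between the assays, and Mars2, at the top in RNA-seq, had 18, 18.6 and 17 CPM in footprints. At the low end Pars2, for proline, had 13.0, 11.2 and 12.9 CPM in RNA-seq and 10.8, 11 and 11 CPM in footprints.

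The first comparison asked how the share of footprints of each member related to its share of RNA in WT cells. All 20 cytosolic synthetases had a larger share of footprints than of RNA-seq reads, by a median of 1.53 on the log2 scale and a range of 0.59 to 2.18. The mitochondrial synthetases had a median of -0.23 and ran from -1.98 to 1.44. The median over the 11854 genes tested was -0.00, with quartiles at -0.89 and 0.89. Values are log2 differences, footprints minus RNA-seq, from 1 scaling over the 6 WT libraries. They compare read shares within the libraries and give no number of ribosomes per mRNA. They also differ slightly from the ratio of the printed CPM values, which are scaled within each assay. Reads in no gene feature were 51.7% to 57.1% of WT RNA-seq and 5.36% to 6.39% of WT footprint reads. Which parts of a transcript the reads of each assay covered was not analysed, so the values do not measure translation alone.

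By edgeR's quasi-likelihood test, 34 of 36 members had an FDR (Benjamini-Hochberg adjusted p) under 0.05, against 82.9% of all genes tested. With the replicate block 33 members were called, against 83.7% of all genes. The directions were unlike in the 2 compartments. All 20 cytosolic members were called higher in footprints, where 41.8% of all genes were, while 5 mitochondrial members were called higher and 9 lower, where 41% of all genes were called lower. Of the cytosolic members 18 lay above the 75th percentile of all genes and 9 above the 90th; of the mitochondrial members 2 lay above the 75th and 3 below the 25th.

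Rars, the arginyl-tRNA synthetase, had the largest difference. It had 41.2, 41.1 and 42.0 CPM in WT RNA-seq and 154, 166 and 170 CPM in WT footprints, a log2 difference of 2.18 (SE 0.08, edgeR FDR 7.69e-12), or 4.52-fold. All footprint libraries lay far above all RNA-seq libraries. Kars, the lysyl-tRNA synthetase of both compartments, followed with 59.3, 58.0 and 65.0 CPM against 216, 227 and 224 CPM, a log2 difference of 2.07 (SE 0.08, edgeR FDR 1.1e-11). These neighbours in the order differed from each other by about their standard errors. At the low end of the cytosolic members, Cars had 37.7, 34.3 and 36.5 CPM in RNA-seq and the footprint values above, a log2 difference of 0.59 (SE 0.08, edgeR FDR 9.38e-06). Yars, for tyrosine, had 43.7, 42.0 and 47.1 CPM against 72.5, 68.5 and 72.7 CPM, a log2 difference of 0.88 (SE 0.08, edgeR FDR 9.75e-08). Neither Cars nor Yars had overlapping values, although both stood below the other 18 cytosolic members.

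The 8 cytosolic members of the multisynthetase complex, Dars, Eprs, Iars, Kars, Lars, Mars, Qars and Rars, had a median log2 difference of 1.52, close to the 1.53 of all cytosolic members, and spread from 1.10 (Iars) to 2.18 (Rars). Both subunits of the phenylalanyl-tRNA synthetase, which work as a tetramer of alpha and beta chains, had close values, 1.68 (SE 0.10) for Farsa and 1.81 (SE 0.08) for Farsb. The members with the promoter match did not lie at one end: Aars had 1.80, Gars 1.79, Tars 1.20, Iars 1.10 and Yars 0.88.

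Among the mitochondrial enzymes Yars2, for tyrosine, had the largest positive difference. It had 11.3, 11.3 and 11.4 CPM in RNA-seq and 26.8, 27.0 and 26.6 CPM in footprints, a log2 difference of 1.44 (SE 0.10, edgeR FDR 7.59e-09). Sars2, for serine, followed with 11.6, 15.9 and 16.8 CPM against 27.4, 24.8 and 23.5 CPM, a log2 difference of 0.97 (SE 0.13, edgeR FDR 7.02e-06). Rars2 at 0.84, Iars2 at 0.57 and Aars2 at 0.44 were the other members called higher, and for Aars2 the library values of the assays overlapped.

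Mars2 had the lowest ratio of all 36, with a log2 difference of -1.98 (SE 0.10, edgeR FDR 1.62e-10), which is 0.254 times its RNA-seq share; it lay at the 8.64th percentile of all genes. Cars2, for cysteine, had 57.4, 57.3 and 59.5 CPM in RNA-seq and 22.3, 24.7 and 23.7 CPM in footprints, a log2 difference of -1.10 (SE 0.08, edgeR FDR 1.3e-08). Wars2 at -1.04, Fars2 and Vars2 at -0.56 each, Ears2 at -0.47, Nars2 at -0.35, Tars2 at -0.27 and Hars2 at -0.19 were also called lower. The call for Hars2 was lost with the replicate block (edgeR FDR 0.0507) and without replicate 1 or replicate 2 of either assay (4 of 6 omissions, highest edgeR FDR 0.137). Lars2 (-0.04, SE 0.08) and Pars2 (0.02, SE 0.12) did not pass the test.

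**Figure D1:**
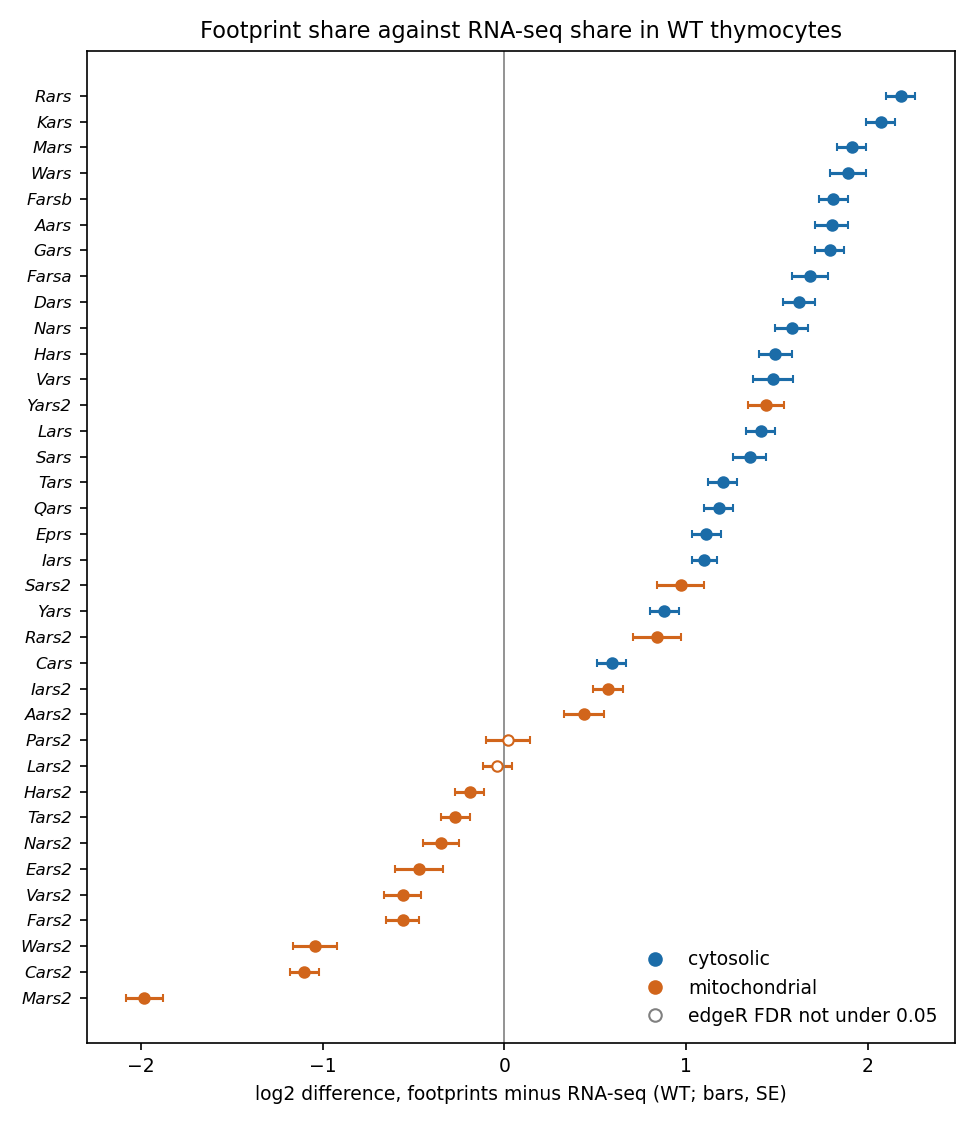
The log2 difference between footprint and RNA-seq shares in WT thymocytes is plotted for the 36 members, one row each, with bars for the SE from the fit to 3 libraries per assay; filled points passed the edgeR threshold. All 20 cytosolic members (blue) lie to the right of 0, from 0.59 to 2.18, and the 16 mitochondrial members (orange) spread from -1.98 to 1.44.

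The same amino acid is charged in both compartments by 2 different genes in many cases, which allows 15 pairings of a cytosolic with a mitochondrial member, Fars2 entering with both Farsa and Farsb. The cytosolic member had the higher log2 difference in 14 of 15 pairs, by a median of 1.68. The gap was largest for methionine, where Mars stood at 1.91 and Mars2 at -1.98, a gap of 3.89. It was 2.92 for tryptophan (Wars and Wars2) and 2.04 for valine (Vars and Vars2), but 0.53 for isoleucine and 0.38 for serine. For tyrosine alone among the 15 the order was turned, Yars2 at 1.44 lying above Yars at 0.88, a gap of -0.56. The gaps are a description and were not tested.

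**Figure D2:**
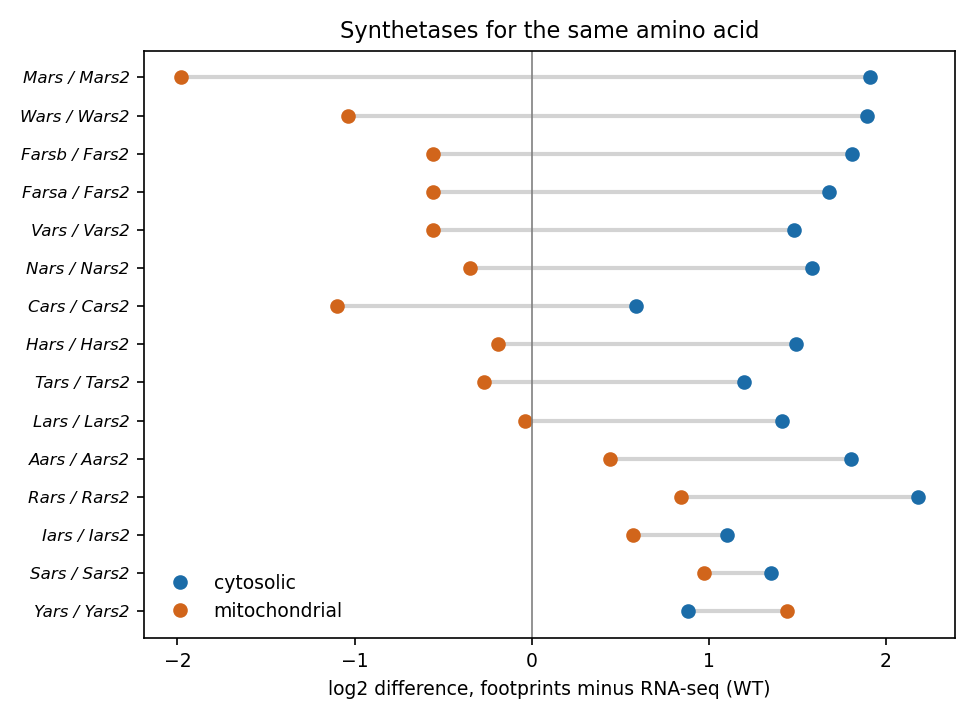
Each row joins the cytosolic (blue) and the mitochondrial (orange) synthetase for 1 amino acid, placed by its WT log2 difference between footprint and RNA-seq shares. The blue point is to the right in 14 of 15 rows, the tyrosine row being the exception.

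Scaling left these directions in place for the cytosolic members. All 20 were called higher with DESeq2 size factors, with library totals only, with no filter on low counts and with the replicate block. With library totals only the median of all genes moved by -0.24 and the share of calls that were higher moved from 50.5% to 41.6%; the cytosolic median was then 1.29 and the mitochondrial median -0.48, and 4 mitochondrial members were called higher and 10 lower. Relative to the median of all genes the medians were 1.54 and -0.23, as before. This setting moves all genes by nearly the same amount, so relative values could hardly change and do not test the scaling. With no filter on low counts 5 mitochondrial members were called higher and 6 lower, and the medians relative to all genes were 1.63 and -0.13.

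The second comparison asked what changed in RNA of the KO. None of the 36 synthetase genes passed the test, and their differences were small: from -0.39 (Nars2) to 0.19 (Tars2) on the log2 scale, with a median of -0.08 for cytosolic and -0.09 for mitochondrial members against -0.00 for the 13652 genes tested. Lower values in KO were had by 26 of 36 members, against 50.1% of all genes, and by 24 to 29 of them when any 1 library was left out. In a bulk sample, fewer cells of a type that expresses a gene and less RNA of it per cell cannot be told apart.

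By edgeR, 0 of 36 members were called in RNA-seq, against 6.91% of all genes; 0 were called with the replicate block, against 0.806%, and 0 by DESeq2, against 3.9%. At an unadjusted p under 0.05 there were 6 members, Gars, Mars, Cars2, Nars2, Pars2 and Tars2, or 16.7%, against 23.8% of all genes. The lowest adjusted p of a member in the authors' deposited table was 0.274. Groups did not overlap, with KO lower, for Gars, Mars, Cars2, Ears2, Lars2 and Nars2 (16.7% of members, against 15.4% of all genes), and with KO higher for Rars and Yars2 (5.56%, against 15.5%). The share of members that differed was thus near or below that of all genes.

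Nars2, the mitochondrial asparaginyl-tRNA synthetase (ENSMUSG00000018995.12), had the smallest p in RNA-seq. It had 27.2, 30.4 and 31.5 CPM in WT and 24.9, 22.0 and 21.2 CPM in KO. The KO libraries were all lower, with a log2 difference of -0.39 (SE 0.09), but the edgeR FDR was 0.0621, and 0.502 with the block. Cars2 had the next smallest p, with the WT values above and 51.6, 51.9 and 49.4 CPM in KO, a log2 difference of -0.19 (SE 0.05, edgeR FDR 0.0929). Mars, the cytosolic methionyl-tRNA synthetase and a member of the complex (ENSMUSG00000040354.14), had 40.5, 45.5 and 48.6 CPM in WT and 39.6, 35.3 and 32.6 CPM in KO. Its groups were close without overlapping, and the log2 difference was -0.33 (SE 0.10, edgeR FDR 0.118).

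In ribosome footprints of the KO, edgeR called 4 synthetase genes lower without the replicate block and 0 with it. The 4 were Nars2, Mars, Iars2 and Qars, for asparagine and isoleucine in mitochondria and methionine and glutamine in the cytosol. Nars2 stood at 0.649 times its WT level and the other 3 at between 0.865 and 0.913 times. The remaining 32 members did not pass the test, and 28 of all 36 had lower values in KO, against 51.6% of the 13509 genes tested. Medians were -0.06 for cytosolic and -0.07 for mitochondrial members, against -0.01 for all genes.

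The 4 calls are 11.1% of the members, against 17.6% of all genes called and 8.34% called lower. With the replicate block 0 of 36 were called, against 3.02% of all genes. DESeq2 called Hars and Nars2 (5.56%), against 10.5% of all genes, and the authors' deposited table has adjusted p-values under 0.05 for Hars (0.033), Mars (0.0279) and Nars2 (0.00248). Groups did not overlap, with KO lower, for 10 members (27.8%, against 19.6% of all genes): Aars, Gars, Hars, Mars, Qars, Vars, Ears2, Iars2, Nars2 and Pars2. With KO higher they did not overlap for Tars2 and Wars2 (5.56%, against 18.5%).

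Nars2 had 21.1, 18.7 and 21.5 CPM in WT footprints and 12.6, 14.2 and 12.3 CPM in KO footprints. All KO libraries lay well below all WT libraries. The log2 difference was -0.62 (SE 0.09, edgeR FDR 0.00619), and the DESeq2 adjusted p was 0.00171. Nars2 kept its call when any 1 of the 6 libraries was left out, with a highest edgeR FDR of 0.03, and missed the threshold with the replicate block at an edgeR FDR of 0.0514. No other gene's RefSeq span overlaps that of Nars2.

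Mars had 151, 148 and 144 CPM in WT footprints and 125, 128 and 131 CPM in KO footprints, so that the groups stood apart in each library. The log2 difference was -0.21 (SE 0.04, edgeR FDR 0.0125); the FDR was 0.258 with the block, and the DESeq2 adjusted p was 0.0659. The call was lost without KO replicate 1 and without KO replicate 2, with a highest edgeR FDR of 0.0664. The RefSeq span of Mars overlaps that of Ddit3, a stress-response transcription factor, whose own row did not pass the test (-0.16, SE 0.19, edgeR FDR 0.621).

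Iars2, the mitochondrial isoleucyl-tRNA synthetase (ENSMUSG00000026618.11), had the WT values above and 77.1, 77.6 and 73.2 CPM in KO footprints. The log2 difference was -0.19 (SE 0.04, edgeR FDR 0.0236, and 0.313 with the block). The RefSeq span of Iars2 overlaps those of Rab3gap2, Mir194-1 and Mir215. In RNA-seq its groups overlapped, with 64.4, 71.4 and 66.1 CPM in WT and 68.8, 61.3 and 66.7 CPM in KO. Qars, the cytosolic glutaminyl-tRNA synthetase (ENSMUSG00000032604.16), had 164, 167 and 163 CPM in WT footprints and 151, 149 and 152 CPM in KO footprints, a log2 difference of -0.13 (SE 0.03, edgeR FDR 0.0332, and 0.485 with the block). The call for Iars2 and that for Qars were each lost whichever of the 6 libraries was left out, with highest edgeR FDRs of 0.084 and 0.134. In RNA-seq Qars had 81.9, 77.7 and 91.2 CPM in WT and 75.3, 80.0 and 66.2 CPM in KO, and the groups overlapped.

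**Figure D3:**
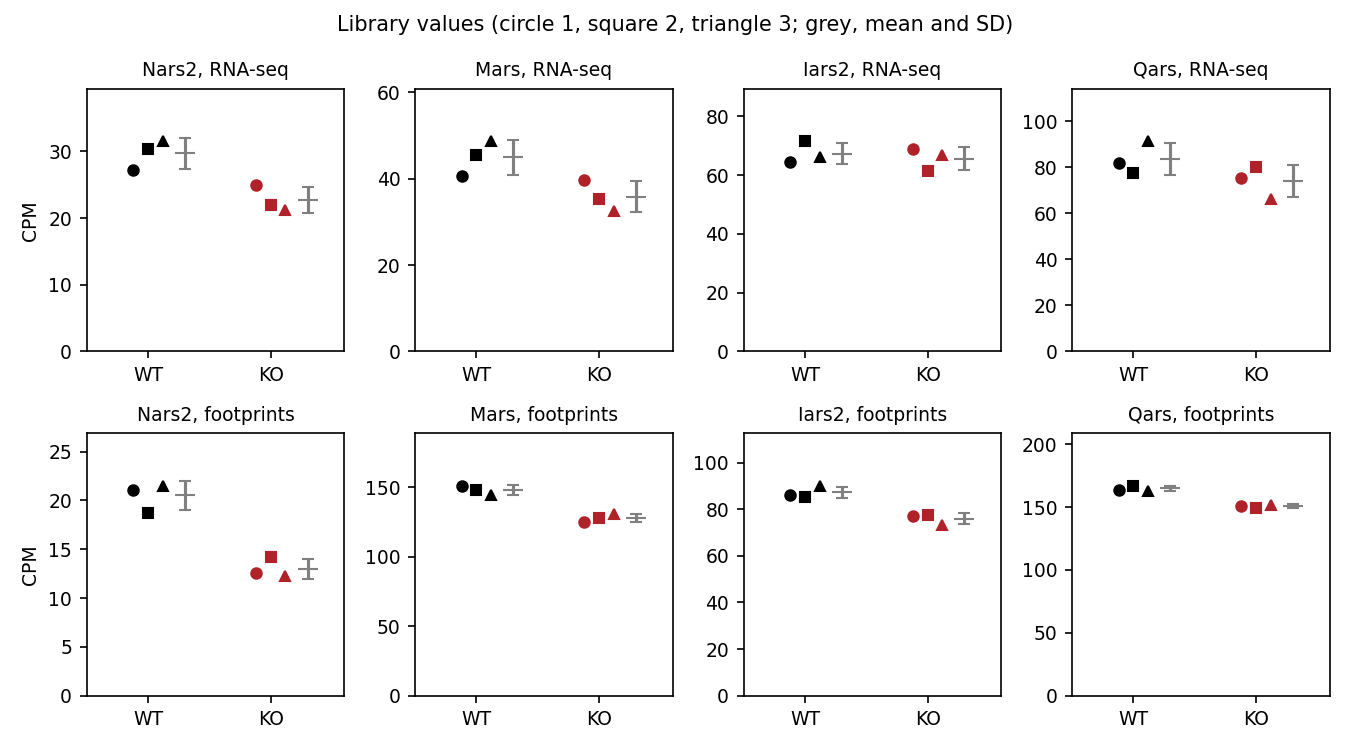
CPM of the 4 members called in footprints are plotted by library, WT in black and KO in red, RNA-seq above and footprints below, with grey bars for the mean and SD of 3 libraries and every axis from 0. In footprints each KO library lies below each WT library for all 4 genes, while the RNA-seq values of Iars2 and Qars overlap.

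Hars, the cytosolic histidyl-tRNA synthetase that DESeq2 called, had a log2 difference of -0.30 (SE 0.09, edgeR FDR 0.0625, and 0.192 with the block) in footprints. Its RefSeq span overlaps that of Hars2, the mitochondrial enzyme, which had -0.01 (SE 0.05) in the same libraries. Reads shared by the 2 genes cannot be assigned from the tables, and 16 of 36 members have spans that overlap another gene's. Ears2, for glutamate in mitochondria, had -0.34 (SE 0.13, edgeR FDR 0.122) at 7.95 CPM in WT, the lowest footprint level of the members. On the other side, Wars2 had 8.01, 7.72 and 8.34 CPM in WT and 9.37, 9.74 and 9.08 CPM in KO footprints, a log2 difference of 0.25 (SE 0.07, edgeR FDR 0.097).

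Added over the cytosolic members, footprints came to 3261 to 3387 CPM in WT and 3104 to 3242 CPM in KO. Added over the mitochondrial members, they came to 470 to 479 CPM in WT and 441 to 449 CPM in KO. Neither sum overlapped between the genotypes, with KO lower, as was so for 19.6% of all single genes tested in footprints. In RNA-seq both sums overlapped, the cytosolic at 1288 to 1413 CPM in WT and 1222 to 1352 CPM in KO. The mitochondrial sum lay at 591 to 620 CPM in WT and 570 to 598 CPM in KO. Whether the sums differed more in footprints than in RNA-seq was not tested. The sums are a description without a test, and libraries with the same number are tied in them as in the single genes.

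The members at the ends of the WT order of levels and ratios mostly overlapped between the genotypes. Eprs had 195, 177 and 197 CPM in KO RNA-seq and 352, 326 and 328 CPM in KO footprints. Kars had 59.4, 61.1 and 53.4 CPM and 226, 215 and 217 CPM. For both, WT and KO overlapped in each assay. Wars had 35.1, 25.3 and 30.7 CPM in KO RNA-seq and 108, 103 and 96.7 CPM in KO footprints. Cars had 33.2, 36.7 and 33.9 CPM and 47.9, 46.5 and 48.1 CPM, and Yars 42, 44 and 38.4 CPM and 66.3, 70 and 65.8 CPM. These 3 overlapped with WT too. Vars had 110, 102 and 73.6 CPM in KO RNA-seq, where the groups overlapped, and 248, 244 and 221 CPM in KO footprints, where every KO library lay below every WT library (-0.16, SE 0.06, edgeR FDR 0.121). Mars2, the member with the lowest ratio, had 80.9, 81 and 96.3 CPM in KO RNA-seq and 16.4, 15.9 and 17.7 CPM in KO footprints, and Sars2 had 17, 12.5 and 12 CPM and 21.8, 24.2 and 25.8 CPM, again overlapping with WT. Yars2 had 27.2, 26.8 and 27.2 CPM in KO footprints, and Cars2 had 24.1, 21.7 and 22.8 CPM, both overlapping with WT. Pars2 had 9.51, 11.4 and 9.61 CPM in KO RNA-seq and 9.83, 9.68 and 9.57 CPM in KO footprints. Its footprint groups did not overlap (-0.17, SE 0.06, and 0.16 with the block, edgeR FDR 0.261).

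Set side by side, the assays gave KO values lower in both for 23 members (63.9%, against 33.7% of the 11854 genes tested in both), higher in both for 5 (against 32.2%) and of unlike sign for 8. Groups were lower in KO without overlap in both assays for Gars, Mars, Ears2 and Nars2 (11.1% of members, against 6.37% of all genes tested in both). Gars, for glycine, had log2 differences of -0.19 (SE 0.07, edgeR FDR 0.168) in RNA-seq and -0.18 (SE 0.06, edgeR FDR 0.0708) in footprints. The other members with the promoter match had KO values lower in both assays as well, and none of these passed the test. In RNA-seq and footprints the differences were -0.20 and -0.05 for Aars and -0.06 and -0.08 for Iars. They were -0.05 and -0.03 for Tars and -0.10 and -0.07 for Yars. Among cytosolic members whose window held no match, Farsb, Kars, Mars and Qars were also lower in both assays. Dars, Eprs, Farsa and Sars were not. A link to the motif was not tested.

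**Figure D4:**
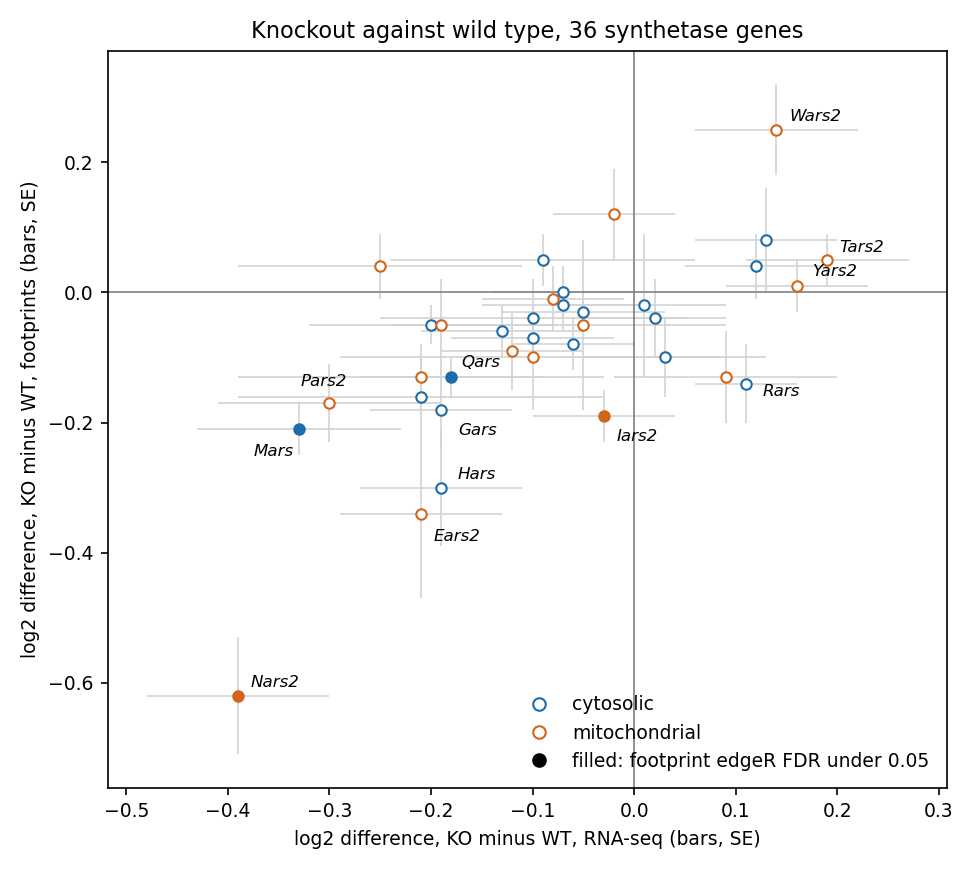
The log2 difference between KO and WT in RNA-seq (horizontal) is plotted against that in footprints (vertical) for the 36 members. Bars give the SE of the fit without the replicate block, and filled points passed the edgeR threshold in footprints. Of the members, 23 lie below 0 on both axes, and Nars2, at -0.39 and -0.62, lies farthest from 0 on both axes.

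The third comparison asked whether footprints changed beyond RNA. No synthetase gene passed the test of the interaction of genotype and assay over the 12 libraries. Differences ran from -0.25 (Rars) to 0.29 (Vars2) on the log2 scale, with medians of 0.02 for cytosolic and 0.01 for mitochondrial members and 0.01 for all genes. By edgeR 0 of 36 were called, against 0.211% of all genes; 0 were called with the replicate block within each assay, against 0.0169%, and 0 by DESeq2, against 0.421%. At an unadjusted p under 0.05 there was 1 member, Rars, against 14% of all genes.

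Rars had 45.1, 45.2 and 43.9 CPM in KO RNA-seq, all above the WT libraries, and 157, 145 and 142 CPM in KO footprints, where the groups overlapped. Its difference in translation was -0.25 (SE 0.09, edgeR FDR 0.234). Iars2 followed with -0.16 (SE 0.09, edgeR FDR 0.426). Vars2, for valine in mitochondria, had 53.6, 57.6 and 69.4 CPM in WT RNA-seq and 57.1, 54.0 and 42.3 CPM in KO RNA-seq. In footprints it had 35.1, 34.6 and 37.3 CPM in WT and 37.1, 37.5 and 34.4 CPM in KO, and its difference in translation was 0.29 (SE 0.16, edgeR FDR 0.451). For Nars2 the difference in translation was -0.24 (SE 0.14, edgeR FDR 0.47), so that the difference in its footprints was not shown to exceed that in its RNA.

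The other genes of tRNA charging were read beside the members. The 3 scaffold proteins of the complex, Aimp1, Aimp2 and Eef1e1, all had a larger share of footprints than of RNA in WT, at 0.68, 2.81 and 1.09 on the log2 scale, and 0 of 3 were called between KO and WT in either assay, with log2 differences of -0.23 to -0.12 in RNA-seq and -0.14 to -0.02 in footprints. Of 15 further genes of charging, editing and mitochondrial amidation, 0 were called in RNA-seq and 2 (13.3%) in footprints, against 6.91% and 17.6% of all genes. Dtd2, which frees tRNA of wrongly attached D-amino acids, fell by 0.53 on the log2 scale (SE 0.08, edgeR FDR 0.00819) from 9.73 to 10.5 CPM in WT to 6.56 to 7.36 CPM in KO. Ppa2, the mitochondrial pyrophosphatase, rose by 0.22 (SE 0.04, edgeR FDR 0.0192). With the block the FDRs were 0.188 and 0.305. Tarsl2, a synthetase that is not on the list of 36, had -0.50 (SE 0.14, edgeR FDR 0.052) in footprints.

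Of 23 genes of the amino acid response other than synthetases, 16 could be tested in RNA-seq and 20 in footprints. By edgeR 2 (12.5%) and 3 (15%) of these were called, against 6.91% and 17.6% of all genes. Atf4 itself had -0.07 (SE 0.06, edgeR FDR 0.534) in RNA-seq and 0.13 (SE 0.08, edgeR FDR 0.294) in footprints. Asns, the asparagine synthetase, could be tested in footprints only, at -0.50 (SE 0.14, edgeR FDR 0.227). Its footprint levels were low, at 1.51 to 1.61 CPM in WT and 0.982 to 1.11 CPM in KO. Ddit4, an inhibitor of mTORC1 that many stresses induce, rose in both assays. It lay at 104 to 154 CPM in WT and 180 to 289 CPM in KO RNA-seq, a log2 difference of 0.94 (SE 0.21, edgeR FDR 0.05, just under the threshold before rounding, and 0.0636 with the block). In footprints it lay at 148 to 193 CPM in WT and 400 to 533 CPM in KO, a log2 difference of 1.59 (SE 0.15, edgeR FDR 0.0018, and 0.000284 with the block). Got1, the cytosolic aspartate aminotransferase, fell by 0.45 in RNA-seq and by 0.20 in footprints (edgeR FDRs of 0.0303 and 0.0155), and Cebpb, a transcription factor, rose by 0.55 in footprints (edgeR FDR 0.0162). The block took the calls of Got1 (0.499 and 0.355) and Cebpb (0.309). The list as a whole had medians of -0.11 in RNA-seq and -0.10 in footprints, against -0.00 and -0.01 for all genes.

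Amino acid transporters were tested for 10 of 11 genes in each assay. By edgeR 2 (20%) were called in RNA-seq and 1 (10%) in footprints, against 6.91% and 17.6% of all genes. In RNA-seq Slc7a11, the cystine and glutamate exchanger, rose by 0.24 (SE 0.05, edgeR FDR 0.0321) and Slc7a5, which carries large neutral amino acids, fell by 0.44 (SE 0.10, edgeR FDR 0.0471). In footprints Slc1a4, a carrier of small neutral amino acids, fell by 0.88 (SE 0.22, edgeR FDR 0.0399). With the block the FDRs were 0.602, 0.395 and 0.231, so that no transporter was called.

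Some summed markers of other cells did not overlap between the genotypes in the same libraries. Among all single genes tested, 15.4% lay lower and 15.5% higher in KO without overlap in RNA-seq, and 19.6% and 18.5% in footprints. The calls below stand against 6.91% of all genes called in RNA-seq and 17.6% in footprints. With the block those shares were 0.806% and 3.02%. Summed over 4 granulocyte genes, levels were 13 to 19.6 CPM in WT and 27.6 to 41.9 CPM in KO RNA-seq, and 133 to 205 CPM and 216 to 346 CPM in footprints; 2 of 3 tested were called higher in RNA-seq and 3 of 4 in footprints, of which 0 and 3 were called with the block. Summed over 5 erythroid genes, RNA-seq levels were 69.3 to 81.5 CPM in WT and 42.4 to 51.8 CPM in KO, while the footprint sums overlapped at 35.5 to 67.2 CPM and 30.5 to 65.8 CPM; 1 of 4 tested was called lower in each assay and 0 with the block. Summed over 9 genes of epithelium and stroma they were 219 to 223 CPM and 243 to 249 CPM in RNA-seq and overlapped in footprints at 260 to 302 CPM and 273 to 327 CPM; 1 gene was called higher and 1 lower in each assay and 0 with the block. Sums for B cells (5 genes), for macrophages and dendritic cells (7 genes) and for thymocytes (12 genes) overlapped between the genotypes in both assays. Of their genes 0 were called in RNA-seq; in footprints 1 B-cell gene was called higher, 2 macrophage and dendritic genes lower, and 2 thymocyte genes higher and 3 lower, of which 1 in each list was called with the block. The part of these markers in the synthetase differences was not tested.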

How the data were processed

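RNA-seq and footprint libraries of thymocytes, 3 per group, were assigned to groups from their titles. The authors deposited gene counts (whole numbers of reads for each Ensembl ID) in a separate table for each assay, named as adjusted in a way the labels do not explain; FastQC, Bowtie2 2.5.1, STAR 2.7.10a, HTSeq 2.0.3 and DESeq2 1.40.2 are listed in the submitters' processing notes, while genome build, annotation and the use of strand are not stated there. The 5 rows that name no gene (71.5% to 73% of RNA-seq and 26.9% to 27.7% of footprint reads) were left out. The authors' deposited comparison tables gave log2 fold changes and adjusted p-values, of which 12 per-library columns were not used.

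CPM and tests were computed here with edgeR 4.0.16 in R 4.3.3: TMM factors, filterByExpr at a minimum count of 10, the quasi-likelihood test and Benjamini-Hochberg adjustment over all genes tested, called at an FDR under 0.05. Translation was the interaction of assay and genotype in 1 model. All 36 members passed the filter in each comparison. The SE is the log2 difference over the square root of F. It can be small beside its p-value: Pars2 in KO footprints had -0.17 (SE 0.06) with an edgeR p of 0.113. DESeq2 1.42.0 and other settings were alternatives. The fits were also run on simulated counts, in which every library was drawn independently. That run checked the code and does not give the error rate in these mirror-image libraries. The series text gives 3 mice per genotype, the labels do not tie libraries to mice, and p-values measure only the spread between these libraries.

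The replicate numbers are shared by the groups in the labels. Same-numbered WT and KO libraries deviated in opposite directions (correlations of -0.984 to -0.958 in RNA-seq and -0.99 in footprints), so they did not deviate together, but the numbers tie the libraries in some way, and the value with the replicate number as a block is given beside edgeR calls of synthetases between KO and WT; in the WT comparison the block changed the call of Hars2 only. Within a group, libraries differed beyond sampling noise (chi-square per degree of freedom of 3.14 to 11.6).

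The members and gene lists were chosen with earlier results of these data known. Library values are given for members called between KO and WT, the 3 with the smallest p in each such comparison, and the 2 at either end of the footprint to RNA-seq ratio and of the level in each compartment; genes of other lists are named where called or as the 2 with the smallest p, while Atf4, Asns, Ddit3, Aimp1, Aimp2, Eef1e1 and Tarsl2 were named after their values were seen, as were members outside the rule. Gene names came from a table of IDs (54587 matched with their version and 567 without it), 6 more from the authors' tables, and 175 IDs kept none. Promoter windows and microRNAs are those of RefSeq, GRCm38.p6; some values and 1 sequence are not reported here.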

Additional observations from a re-analysis of the deposited data

How the results depend on the processing

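With FDR under 0.1, 2 members were called in RNA-seq and 7 in footprints, and genes called numbered 1742 in RNA-seq and 131 in translation, against 943 and 25 at 0.05. With DESeq2 the counts were 2 members in footprints, 532 genes in RNA-seq, 1248 in footprints and 46 in translation. With the replicate block 0 members were called in footprints, and 110 genes in RNA-seq, 408 in footprints (against 2376) and 2 in translation (block within each assay); a block by mouse gave 17. Leaving out 1 library at a time gave 1 to 2 members in footprints, 215 to 323 genes in RNA-seq, 1035 to 1554 in footprints and 6 to 24 in translation, each fit having fewer libraries. In WT the medians of cytosolic and mitochondrial members were 1.29 and -0.48 with library totals only, where the median of all genes moved by -0.24, and 1.66 and -0.11 with no filter on low counts, where 24960 genes were tested. Without 1 library at a time, Cars2 in footprints ranged from -0.09 to 0.00 (0.00 without KO replicate 2), Iars2 in RNA-seq from -0.07 to 0.01 (0.01 without replicate 2 of either genotype) and Qars in translation from -0.03 to 0.11 (-0.03 and -0.02 without RNA-seq KO and WT replicate 3); none of these had passed the test. The cause was not tested. Of the other values for named members 311 kept their direction and side of the threshold and 23 lost the call with the same direction. Of the other counts and medians 152 stayed within their limits. Depth limits the members most in footprint KO replicate 3, where the fewest reads of a member were 27.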
